A study of Mus musculus with 12 samples.

Results

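The genes described here encode enzymes that build and sulfate the outer parts of glycans: the carbohydrate sulfotransferases (Chst), the sialyltransferases (St3gal, St6gal, St6galnac and St8sia), the galactosyltransferases (B3galt and B4galt), the beta-1,3 N-acetylglucosaminyltransferases (B3gnt) and the polypeptide GalNAc-transferases (Galnt). They were chosen by gene symbol: a probe was a member if its symbol began with one of these stems, and a gene was kept if some group of the 4 had all 3 of its arrays marking a probe of it as well above background. The symbols covered 68 genes and 85 probes, and 54 genes were kept of the 24140 genes measured on these arrays. The measured values that this rule used were these detection marks. The members and the gene lists were, however, picked with earlier results of these data known. The shares of all genes set beside their counts are therefore no test. All 54 kept genes were detected on all 12 arrays, so none was kept through a single group. Just outside lay Galnt6, detected on 7 arrays, and B3gnt6, detected on 3, each on at most 2 arrays of a group. The other genes that were not kept were B3gnt3, B3gnt7, B3gnt8, Chst4, Chst5, Chst9, Galnt5, Galnt9, Galnt13, St6gal2, St8sia3 and St8sia6.

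Most of these enzymes sit in the Golgi and each adds a particular sugar or sulfate to a protein, lipid or proteoglycan chain as it passes to the cell surface. Galactosyltransferases and N-acetylglucosaminyltransferases extend a chain, and sialyltransferases usually cap it. Sulfotransferases set the charge pattern of chondroitin, dermatan and keratan sulfate. In embryonic cortex, polysialic acid on the adhesion molecule NCAM, gangliosides of the plasma membrane and chondroitin sulfate in the matrix are known products of such enzymes on neural progenitors and young neurons.

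The cells were mouse neural stem cells from embryonic cerebral cortex (age E12.5), measured on 1-colour Agilent arrays in 4 groups of 3. Control cells carried a stably transfected random shRNA and knockdown cells a stably transfected shRNA against JMJD3, so cells of all groups carried an shRNA. JMJD3, the product of Kdm6b, is a demethylase of lysine 27 on histone H3. Each kind of cell was given vehicle or 5 ng/ml TGFb, a secreted growth factor, for 2.5 h. The labels name a single JMJD3 shRNA (sh2) and do not say how many clones or cultures the replicates come from, so p-values cover only how far these samples spread, and that spread may be technical.

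Kdm6b, the target of the shRNA, read -0.84 to -0.59 on the 6 control arrays and -2.12 to -1.90 on the 6 knockdown arrays (log2 of signal over the 75th percentile of that array). It was lower in knockdown cells, by -1.16 with vehicle (SE 0.05, adjusted p = 1.05e-07) and -1.40 with TGFb (SE 0.05, adjusted p = 2.85e-08). Smad7, Skil, Pmepa1 and Id1, known TGFb target genes used as a check, rose with TGFb in both kinds of cell. All 10 markers of neural stem cells and radial glia were detected in every group. Their levels differed: 4 were called higher and 4 lower in knockdown cells with vehicle, and 3 higher and 2 lower with TGFb. Beside them 27.8% and 29% of all genes were called. Markers of other cells were mixed: 6 of 7 neuron, 4 of 4 astrocyte, 6 of 6 oligodendrocyte lineage, 3 of 6 fibroblast, 4 of 5 microglia and 2 of 4 endothelial markers were detected, while Slc17a7, Col3a1, Lum, Pdgfrb, Aif1, Cdh5 and Tie1 were not. The summed linear level of the oligodendrocyte list was 45.8 to 49.7 on the control vehicle arrays, 37.2 to 37.6 on the control TGFb arrays, 40.9 to 43.1 on the knockdown vehicle arrays and 35.1 to 38.3 on the knockdown TGFb arrays. The astrocyte list's summed level was 3.45 to 3.78 with vehicle and 4.01 to 4.29 with TGFb in control cells, without overlap, and overlapped in knockdown cells (3.31 to 3.70 with vehicle, 3.54 to 4.36 with TGFb). Only 1 of the 4 astrocyte genes was called higher with TGFb, in each kind of cell. With TGFb 0 of 6 oligodendrocyte genes rose, while 3 fell in control and 2 in knockdown cells. Called shares of all genes were 10.2% and 9.49%. Between the kinds of cell 1 oligodendrocyte gene was higher and 3 lower with vehicle, from -1.97 to 0.64. With TGFb 0 were higher and 1 lower. The fibroblast list's summed level was higher in knockdown cells without overlap, at 4.17 to 4.75 against 3.40 to 3.81 with vehicle and 3.79 to 4.03 against 3.21 to 3.73 with TGFb. Its genes did not move together: of the 3 measured, 1 was called higher and 1 lower with vehicle. With TGFb 0 were called, with a median difference of -0.03. The part of these lists in the results on members was not tested. The arrays were spread over 4 slides, and arrays of different groups on the same slide deviated together in 12 of 12 pairs. For that reason within-slide differences stand beside several of the largest changes. On a slide each group present has a single array, apart from knockdown TGFb on slide 4 (replicates 2 and 3), so these differences carry no measure of spread.

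Promoter windows are shown for the members with a change of at least 2-fold under TGFb in at least 1 kind of cell and a single window in the RefSeq table, because these are the genes on which the TGFb results turn. They were Chst8, at chr7:34812662-34812961 on the minus strand, B4galt1, at chr4:40853935-40854234 on the minus strand, B3galt2, at chr1:143640447-143640746 on the plus strand, and St8sia4, at chr1:95667545-95667844 on the minus strand. Coordinates and sequences are those of RefSeq (GRCm38.p6), 5′ to 3′, from 250 bases before to 50 bases after the gene's start. Capitals mark matches, on either strand, to CAGAC, the core of the box bound by Smad proteins, to its palindromic form GTCTAGAC, or to TGANTCA, the form of the AP-1 site.
Chst8: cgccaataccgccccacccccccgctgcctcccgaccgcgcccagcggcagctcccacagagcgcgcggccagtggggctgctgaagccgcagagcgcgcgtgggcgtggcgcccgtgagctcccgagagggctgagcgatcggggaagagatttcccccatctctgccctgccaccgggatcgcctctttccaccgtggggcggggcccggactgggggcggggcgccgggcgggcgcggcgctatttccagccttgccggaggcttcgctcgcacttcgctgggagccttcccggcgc
B4galt1: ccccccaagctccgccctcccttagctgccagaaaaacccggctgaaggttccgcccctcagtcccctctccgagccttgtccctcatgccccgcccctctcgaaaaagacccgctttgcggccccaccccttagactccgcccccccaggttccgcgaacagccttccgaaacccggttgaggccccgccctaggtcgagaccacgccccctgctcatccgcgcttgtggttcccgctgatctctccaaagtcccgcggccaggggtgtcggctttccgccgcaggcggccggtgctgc
B3galt2: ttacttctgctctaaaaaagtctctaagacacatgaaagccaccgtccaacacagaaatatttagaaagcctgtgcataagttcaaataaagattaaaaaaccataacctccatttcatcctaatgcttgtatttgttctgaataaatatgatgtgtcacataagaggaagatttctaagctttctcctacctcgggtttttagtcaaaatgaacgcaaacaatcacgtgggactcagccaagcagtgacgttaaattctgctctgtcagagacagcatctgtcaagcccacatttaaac
St8sia4: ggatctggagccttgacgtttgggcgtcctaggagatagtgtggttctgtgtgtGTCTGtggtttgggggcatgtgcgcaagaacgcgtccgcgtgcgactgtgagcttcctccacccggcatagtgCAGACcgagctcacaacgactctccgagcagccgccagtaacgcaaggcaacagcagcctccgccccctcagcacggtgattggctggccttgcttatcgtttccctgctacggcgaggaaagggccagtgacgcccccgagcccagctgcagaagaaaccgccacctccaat

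St8sia4, which fell with TGFb, held 2 matches to CAGAC, and the other windows printed held 0. The motif occurs in 49.6% of all 32851 windows of the table. GTCTAGAC, found in 0.213% of all windows, and TGANTCA, found in 7.81%, matched none of these 4. The windows differed in CG content: that of Chst8 held 38 CG dinucleotides, B4galt1 26, St8sia4 22 and B3galt2 5, beside a median of 7 over all windows. Chst15, the fifth gene past 2-fold, has 2 overlapping windows, each with 1 match to CAGAC. A window was found for 42 of the 54 kept members, and St6galnac5 and St8sia5 had none in the table.

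TGFb changed a part of the members in control cells: 10 of 54 rose and 11 fell, where 10.2% of all genes tested were called in either direction, 5.43% higher and 4.72% lower (limma, Benjamini-Hochberg adjusted p under 0.05 over all genes). In knockdown cells 10 rose and 8 fell, beside 9.49% of all genes, 4.73% higher and 4.75% lower. Over the members the median log2 change with TGFb was -0.02 in control and -0.01 in knockdown cells, next to -0.01 and -0.02 over all genes. The same 17 genes were called in both kinds of cell, which is 81% of the control calls and 94.4% of the knockdown calls, and all 17 changed in the same direction. The overlap over all genes was not counted, so whether the members share more calls than other genes is not known. The vehicle and TGFb arrays of control cells share no array with those of knockdown cells, but they share slides. In both kinds of cell, slide 1 held only vehicle arrays and slide 4 only TGFb arrays, so treatment and slide were partly mixed in the same way. A fit with the slide as a block kept 20 of the 21 control calls and 16 of the 18 knockdown calls. Changes of at least 2-fold were seen in 4 members in control cells and 3 in knockdown cells, beside 2.08% and 2.09% of all genes. All 6 TGFb arrays lay above all 6 vehicle arrays for 7 members, a pattern of 3.58% of all genes, and below them for 4, a pattern of 2.6%. Chst8, B4galt1, Chst3 and Chst15 led the genes that rose, and B3galt2 and St8sia4 those that fell.

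**Figure D1:**
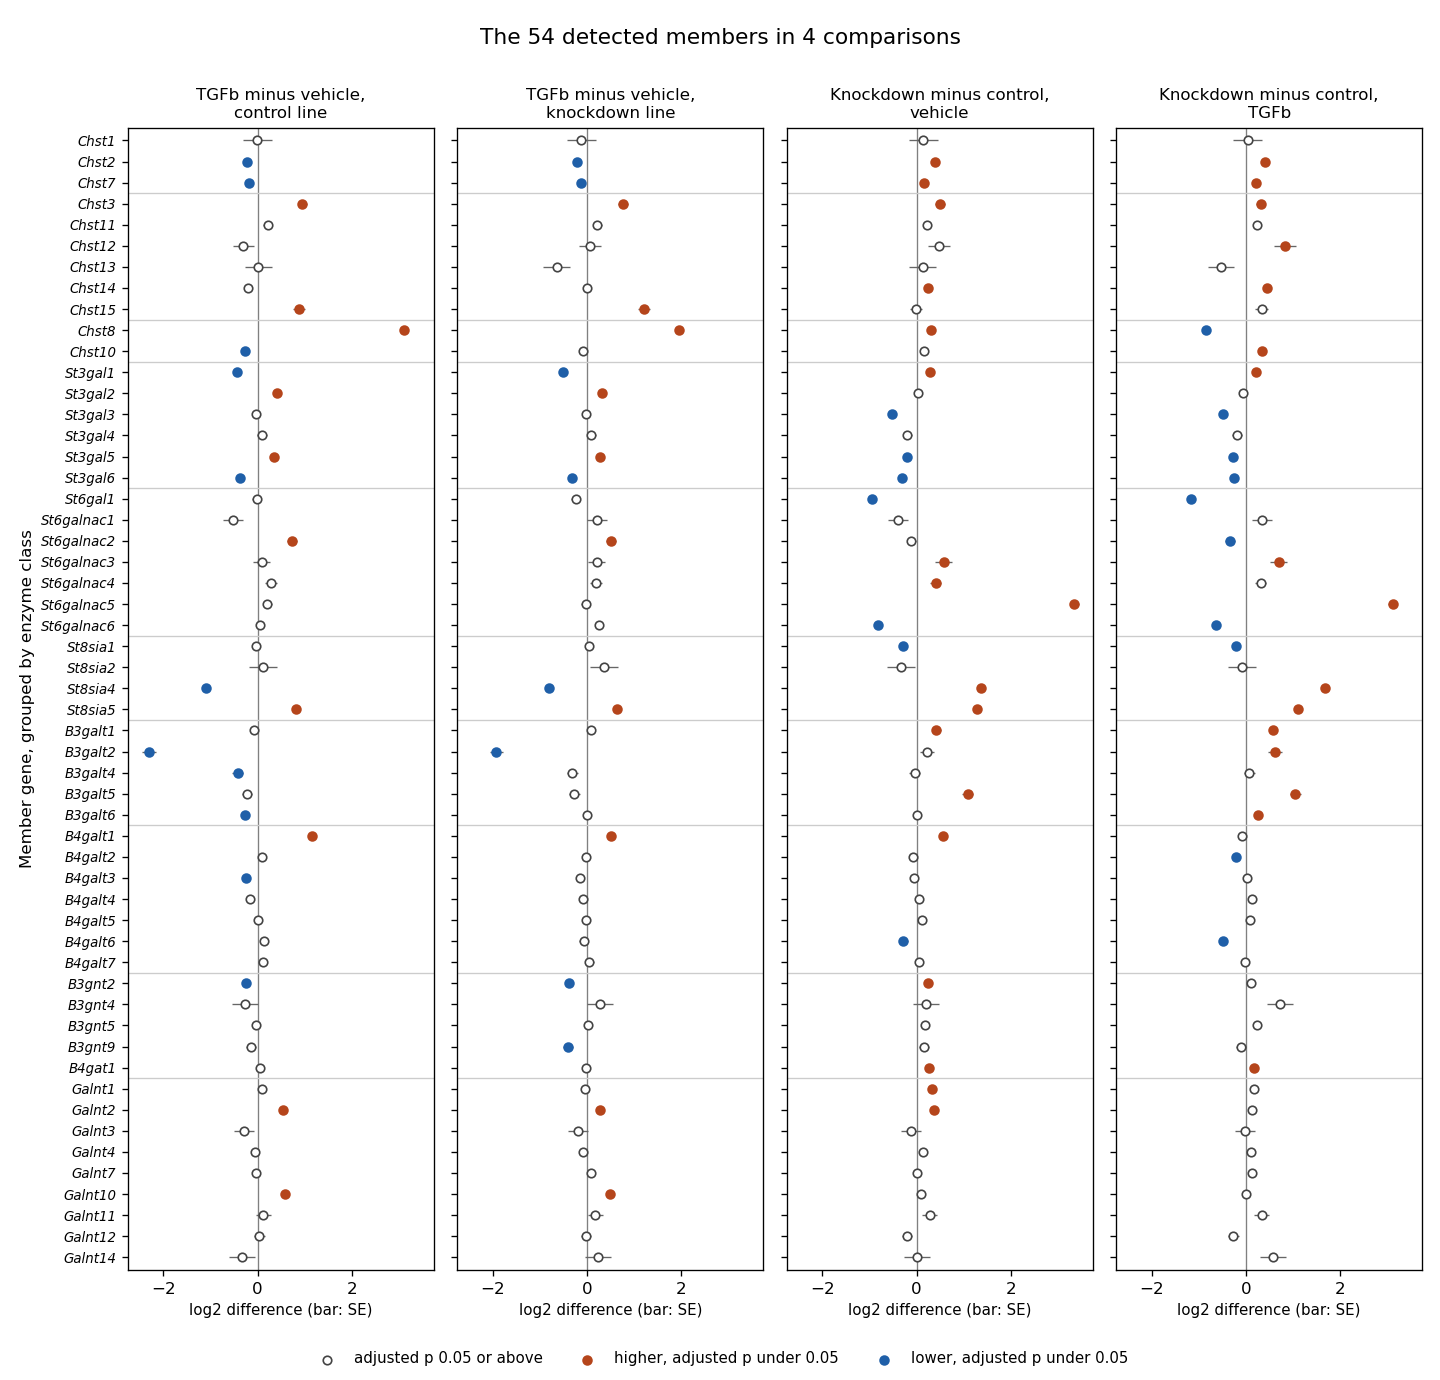
Each row is 1 of the 54 detected members, grouped by enzyme class, and each panel is 1 comparison; the horizontal axis is the log2 difference and bars are standard errors of the fit. Filled points passed an adjusted p of 0.05. B4gat1 is placed with the B3gnt genes by its array name. Chst8 (3.11) and B3galt2 (-2.31) lie farthest out with TGFb in control cells, and St6galnac5 (3.35) with knockdown under vehicle.

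Among the sulfotransferases the largest change with TGFb was that of Chst8, the enzyme that adds sulfate to the 4 position of terminal GalNAc on N-glycans. In the unit used throughout, log2 of signal over the 75th percentile of that array, its probe (chr7:35459936-35459995 in mm9) read -3.15, -3.02 and -3.09 on the control vehicle arrays and 0.03, 0.04 and -0.0012 on the control TGFb arrays. Knockdown cells read -2.75, -2.70 and -2.90 with vehicle and -0.64, -0.83 and -0.98 with TGFb. All 6 TGFb arrays lay above all 6 vehicle arrays, and the 3 control TGFb arrays lay above the 3 knockdown TGFb arrays. The rise was 3.11 (SE 0.08, 8.64-fold, adjusted p = 8.44e-10) in control cells and 1.96 (SE 0.08, 3.9-fold, adjusted p = 3.03e-08) in knockdown cells. Within slides 2 and 3 the control difference was 3.06 and 3.13, and within slide 3 the knockdown difference was 2.25. Chst10, which sulfates the HNK-1 epitope, fell in control cells by 0.28 on the log2 scale (-0.28, SE 0.07, adjusted p = 0.0292), and that call was lost with the slide as a block (-0.27, adjusted p = 0.0737).

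Of the 6 genes grouped here as chondroitin and dermatan sulfotransferases (Chst3 and Chst11 to Chst15), 2 rose in each kind of cell and none fell. Chst3, a chondroitin 6-O-sulfotransferase, read -2.52, -2.20 and -2.54 on control vehicle arrays and -1.28, -1.59 and -1.53 on control TGFb arrays. In knockdown cells it read -1.96, -1.87 and -1.94 with vehicle and -1.10, -1.23 and -1.14 with TGFb. TGFb and vehicle arrays did not overlap in either kind of cell, and the vehicle arrays of knockdown cells lay above those of control cells. Chst3 rose by 0.95 (SE 0.10, adjusted p = 5.67e-05) and by 0.77 (SE 0.10, adjusted p = 0.000377). Within slides 2 and 3 the control difference was 0.92 and 0.95, and within slide 3 the knockdown difference was 0.84.

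Chst15 adds a second sulfate to 4-sulfated GalNAc and so makes the disulfated chondroitin sulfate E unit. It read -4.35, -3.96 and -4.11 with vehicle and -3.02, -3.37 and -3.40 with TGFb in control cells. Knockdown cells read -4.04, -4.05 and -4.35 with vehicle and -2.84, -2.98 and -2.98 with TGFb. The TGFb arrays were the higher ones without overlap, by 0.88 (SE 0.13, adjusted p = 0.001) in control cells and 1.21 (SE 0.13, adjusted p = 8.43e-05) in knockdown cells. Within slides 2 and 3 the control difference was 0.94 and 0.74, and within slide 3 the knockdown difference was 1.52. A second Chst15 probe rose by 1.32 and 1.38. Chst2 and Chst7, grouped here with the keratan sulfate and GlcNAc-6-O sulfotransferases, fell in small steps. The chondroitin and dermatan count above is of a fixed list that leaves them out. It does not speak for every sulfotransferase that can act on chondroitin. In control cells Chst2 fell by 0.22 on the log2 scale (-0.22, SE 0.05, adjusted p = 0.0131) and Chst7 by 0.19 (-0.19, SE 0.04, adjusted p = 0.00683). In knockdown cells Chst2 changed by -0.20 (SE 0.05, adjusted p = 0.0241) and Chst7 by -0.14 (SE 0.04, adjusted p = 0.0498), and the Chst7 call was lost with the slide as a block (adjusted p = 0.187). A second Chst2 probe gave -0.06 in each kind of cell (adjusted p = 0.849 and 0.714).

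**Figure D2:**
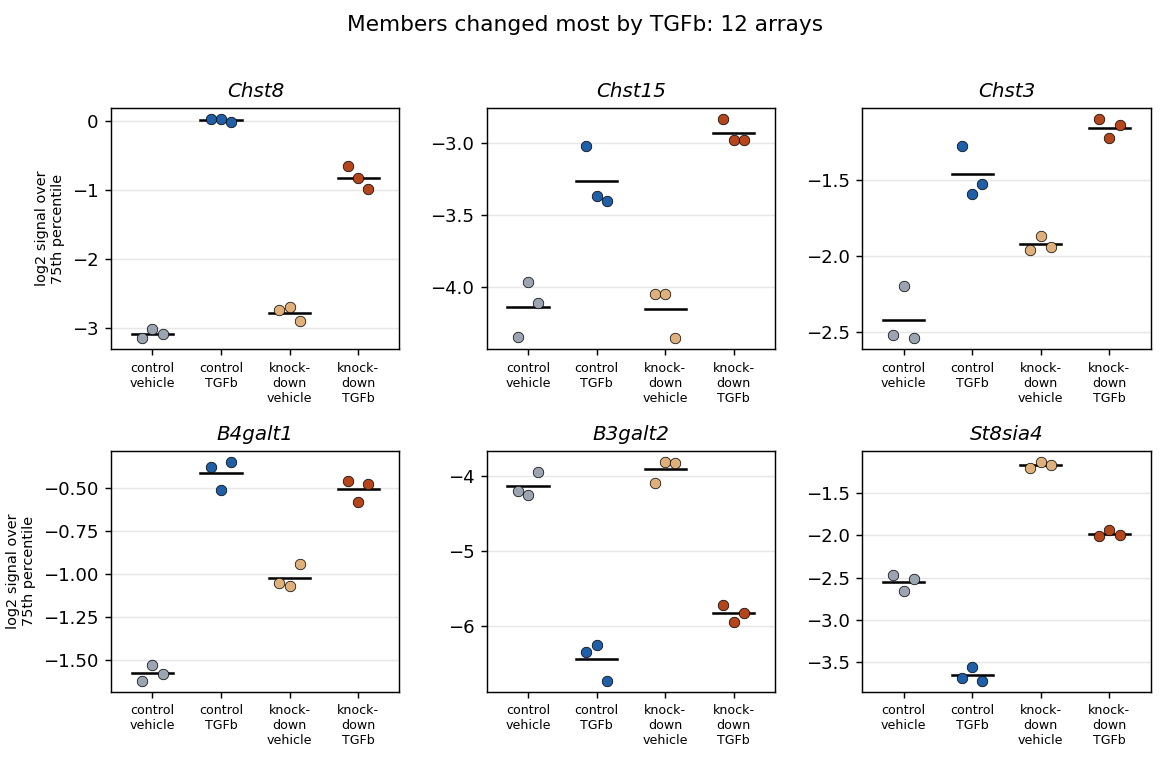
Log2 of signal over the 75th percentile of that array, on each of the 12 arrays for 6 members; each point is 1 array, the line is the group mean of 3, and each panel has its own vertical axis. Chst8, Chst15, Chst3 and B4galt1 are higher on the TGFb arrays of either kind of cell, and B3galt2 and St8sia4 lower.

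The galactosyltransferases held the largest fall and a rise. B3galt2, which adds galactose in beta-1,3 linkage to GlcNAc, had its probe at chr1:145496531-145496590 (mm9). It read -4.19, -4.25 and -3.94 on control vehicle arrays and -6.35, -6.25 and -6.73 on control TGFb arrays. In knockdown cells it read -4.09, -3.80 and -3.82 with vehicle and -5.72, -5.94 and -5.83 with TGFb. All 6 TGFb arrays lay below all 6 vehicle arrays. The change was -2.31 (SE 0.15, adjusted p = 7.92e-07) in control cells, with -2.10 and -2.31 within slides 2 and 3, and -1.93 (SE 0.15, adjusted p = 4.03e-06) in knockdown cells. The size depended on the background correction: with normexp it was -1.26 and -1.11, and in the authors' processed values -1.33 and -1.18, with the call kept each time.

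B4galt1, which makes the N-acetyllactosamine unit of many glycans, read -1.62, -1.53 and -1.58 with vehicle and -0.38, -0.51 and -0.35 with TGFb in control cells. Knockdown cells read -1.05, -1.07 and -0.94 with vehicle and -0.46, -0.58 and -0.47 with TGFb. The vehicle arrays of the knockdown cells were thus above those of the control cells, and the TGFb arrays of both overlapped. The rise was 1.16 (SE 0.06, 2.24-fold, adjusted p = 1.5e-07) in control cells and 0.52 (SE 0.06, 1.43-fold, adjusted p = 0.000148) in knockdown cells, with 1.14 and 1.07 within slides 2 and 3 and 0.49 within slide 3. A second B4galt1 probe, also detected on 12 arrays, did not pass the test in either (0.18, SE 0.21, adjusted p = 0.8, and 0.05, SE 0.21, adjusted p = 0.918). In control cells B3galt4, the galactosyltransferase of ganglioside synthesis, changed by -0.43 (SE 0.12, adjusted p = 0.0391), B3galt6, which acts on the linker of glycosaminoglycan chains, by -0.26 (SE 0.07, adjusted p = 0.0467), and B4galt3 by -0.25 (SE 0.06, adjusted p = 0.0293). The B3galt6 call was lost in 17 and the B3galt4 call in 14 of 29 other settings.

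Sialyltransferases moved in both directions. St8sia4, one of the polysialyltransferases that act on NCAM, read -2.47, -2.66 and -2.51 with vehicle and -3.69, -3.55 and -3.72 with TGFb in control cells. In knockdown cells it read -1.21, -1.13 and -1.17 with vehicle and -2.01, -1.94 and -1.999 with TGFb. The 4 groups did not overlap, and the order from high to low was knockdown vehicle, knockdown TGFb, control vehicle, control TGFb. The fall with TGFb was -1.11 (SE 0.07, adjusted p = 5.44e-07) in control cells, with -1.03 and -1.04 within slides 2 and 3, and -0.81 (SE 0.07, adjusted p = 8e-06) in knockdown cells. St8sia2, the other polysialyltransferase, did not pass the test in any comparison.

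St8sia5, which adds further sialic acids to gangliosides, rose where St8sia4 fell. It read -1.12, -1.29 and -1.20 with vehicle and -0.42, -0.39 and -0.38 with TGFb in control cells. Knockdown cells read 0.13, 0.15 and -0.03 with vehicle and 0.73, 0.64 and 0.74 with TGFb. Again the 4 groups did not overlap, here with control vehicle lowest and knockdown TGFb highest. TGFb raised it by 0.81 (SE 0.06, adjusted p = 3.08e-06) and by 0.63 (SE 0.06, adjusted p = 2.88e-05).

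St6galnac2, which sialylates GalNAc of O-glycans, read -5.41, -5.49 and -5.38 with vehicle and -4.55, -4.68 and -4.85 with TGFb in control cells. Knockdown cells read -5.60, -5.44 and -5.58 with vehicle and -5.01, -5.06 and -5.03 with TGFb. The TGFb arrays were higher without overlap, by 0.73 (SE 0.10, adjusted p = 0.000469) and by 0.51 (SE 0.10, adjusted p = 0.00754). With normexp the changes were 0.46 and 0.32, and in the authors' values 0.46 and 0.25, with both calls kept.

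Of the 6 alpha-2,3 sialyltransferases, 2 rose and 2 fell in each kind of cell. St3gal1, which caps the core of O-glycans, read -0.51, -0.41 and -0.42 with vehicle and -0.91, -0.79 and -0.94 with TGFb in control cells. In knockdown cells it read -0.19, -0.12 and -0.19 with vehicle and -0.67, -0.68 and -0.65 with TGFb. TGFb arrays were lower in both, by -0.43 (SE 0.05, adjusted p = 0.000145) and -0.50 (SE 0.05, adjusted p = 5.09e-05), and a second St3gal1 probe gave -0.41 (adjusted p = 0.0012) and -0.09 (adjusted p = 0.487). St3gal6, which acts on N-acetyllactosamine ends, fell by 0.38 on the log2 scale (-0.38, adjusted p = 0.00404) in control cells and changed by -0.32 (adjusted p = 0.013) in knockdown cells. St3gal2, which like St3gal1 acts on Gal-GalNAc ends, rose by 0.41 (adjusted p = 2.68e-05) and 0.31 (adjusted p = 0.000255). A second St3gal2 probe gave 0.26 (adjusted p = 0.183) and 0.16 (adjusted p = 0.432). St3gal5, which makes the ganglioside GM3, rose by 0.35 (adjusted p = 0.000338) and 0.27 (adjusted p = 0.00285).

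The GalNAc-transferases, which start O-glycans on serine and threonine, gave 2 rises among 9 measured genes in each kind of cell and no fall. Galnt10 read 3.43, 3.45 and 3.39 with vehicle and 4.03, 3.96 and 3.997 with TGFb in control cells. Knockdown cells read 3.53, 3.53 and 3.50 with vehicle and 3.9985, 3.97 and 4.02 with TGFb. Replicates differed little, and the TGFb arrays were higher by 0.57 (SE 0.04, adjusted p = 8.08e-07) and 0.48 (SE 0.04, adjusted p = 4.03e-06). Galnt2 read 3.53, 3.60 and 3.52 with vehicle and 4.15, 4.12 and 3.98 with TGFb in control cells, and 3.87, 4.01 and 3.91 with vehicle and 4.29, 4.16 and 4.18 with TGFb in knockdown cells. It rose by 0.53 (SE 0.06, adjusted p = 7.26e-05) and 0.28 (SE 0.06, adjusted p = 0.00907). Of the enzymes that extend chains with GlcNAc, B3gnt2 fell in both, by -0.25 (SE 0.06, adjusted p = 0.0276) and -0.39 (SE 0.06, adjusted p = 0.00172). B3gnt9 fell in knockdown cells (-0.41, SE 0.10, adjusted p = 0.0298), a call lost with the slide as a block (-0.32, adjusted p = 0.24).

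More members differed between the kinds of cell than with TGFb, as did more genes of the array as a whole. With vehicle, 18 of 54 members were higher in knockdown cells and 7 lower, where 27.8% of all genes were called, 3018 genes higher and 15.3% of all genes lower. With TGFb, 16 were higher and 10 lower, where 29% of all genes were called, 12% higher and 17% lower. The median log2 difference over members was 0.14 with vehicle and 0.12 with TGFb, beside -0.02 and -0.01 over all genes. Calls were shared by 20 genes, 80% of the vehicle calls and 76.9% of the TGFb calls, with no count of the overlap over all genes to set beside them. Of the 20, 19 had the same direction. The exception was Chst8. Scaling each array to its median in place of its 75th percentile gave 13 calls in place of 25 with vehicle, where 16.4% of all genes were then called, and 11 in place of 18 for TGFb in knockdown cells, where 5.74% were. All 6 knockdown arrays lay above all 6 control arrays for 10 members, a pattern of 9.08% of all genes, and below them for 6, a pattern of 11.2% of all genes. In bulk samples such as these, fewer cells of a type and less RNA per cell cannot be told apart. The knockdown and TGFb comparisons share arrays, for instance the control vehicle arrays, so their values are set side by side and not related to each other.

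**Figure D3:**
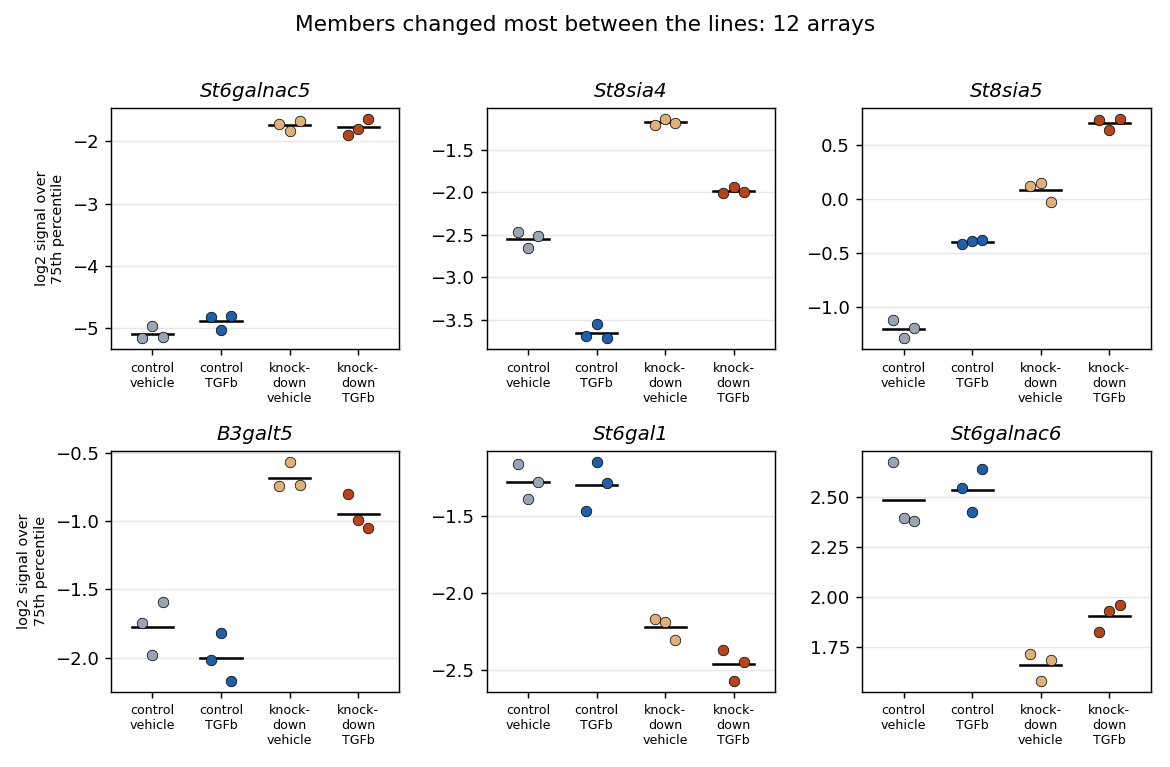
Log2 of signal over the 75th percentile of that array, on each of the 12 arrays for 6 members; each point is 1 array, the line is the group mean of 3, and each panel has its own vertical axis. For St6galnac5, St8sia4, St8sia5 and B3galt5 the 6 knockdown arrays lie above the 6 control arrays, and for St6gal1 and St6galnac6 below them.

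The largest difference belonged to St6galnac5, a sialyltransferase of the nervous system that makes alpha-series gangliosides, whose probe lies at chr3:152484062-152484121 (mm9). Control cells read -5.16, -4.96 and -5.15 with vehicle and -4.82, -5.03 and -4.81 with TGFb. Knockdown cells read -1.71, -1.84 and -1.67 with vehicle and -1.89, -1.79 and -1.64 with TGFb. The 6 knockdown arrays all lay far above the 6 control arrays, and TGFb did not pass the test in either kind of cell. St6galnac5 was higher in knockdown cells by 3.35 (SE 0.10, 10.2-fold, adjusted p = 1.85e-08) with vehicle and 3.11 (SE 0.10, 8.66-fold, adjusted p = 9.75e-09) with TGFb. Within slides 1, 2 and 3 the vehicle difference was 3.45, 3.12 and 3.47, and within slides 3 and 4 the TGFb difference was 3.14 and 3.095. With normexp it was 2.68 and 2.54.

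St8sia4 and St8sia5, with the values given above, were also higher in knockdown cells. St8sia4 differed by 1.38 (SE 0.07, adjusted p = 1.27e-07) with vehicle and 1.67 (SE 0.07, adjusted p = 3.46e-08) with TGFb. St8sia5 differed by 1.29 (SE 0.06, adjusted p = 1.05e-07) and 1.11 (SE 0.06, adjusted p = 3.22e-07). Within slides 1, 2 and 3 the vehicle difference was 1.26, 1.53 and 1.34 for St8sia4 and 1.25, 1.44 and 1.17 for St8sia5. St8sia4 and St8sia5 thus both differed by more than 0.5 in size in each of these 4 comparisons, St8sia5 upward in all of them and St8sia4 downward with TGFb. St8sia1, which makes the ganglioside GD3, was lower in knockdown cells (-0.29, SE 0.05, adjusted p = 0.00076, and -0.21, SE 0.05, adjusted p = 0.00598).

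The other alpha-2,6 sialyltransferases were divided. St6gal1, which caps N-glycans, read -1.16, -1.39 and -1.28 with vehicle and -1.46, -1.14 and -1.28 with TGFb in control cells. Knockdown cells read -2.16, -2.19 and -2.30 with vehicle and -2.37, -2.57 and -2.45 with TGFb. All knockdown arrays lay below all control arrays, by -0.94 (SE 0.09, adjusted p = 1.9e-05) and -1.17 (SE 0.09, adjusted p = 4.1e-06). A second St6gal1 probe gave -0.53 (adjusted p = 0.0295) and -0.46 (adjusted p = 0.053).

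St6galnac6, which sialylates gangliosides, read 2.68, 2.40 and 2.38 with vehicle and 2.54, 2.43 and 2.64 with TGFb in control cells. In knockdown cells it read 1.72, 1.58 and 1.69 with vehicle and 1.83, 1.93 and 1.96 with TGFb. The knockdown arrays were again the lower ones without overlap, by -0.82 (SE 0.08, adjusted p = 2.59e-05) and -0.63 (SE 0.08, adjusted p = 0.000174). St6galnac2, with the values given above, was lower with TGFb (-0.34, SE 0.10, adjusted p = 0.0269), a call lost with the slide as a block (-0.28, adjusted p = 0.0647). St6galnac4 was higher with vehicle (0.41, SE 0.12, adjusted p = 0.0256), where its second probe gave -0.0017 (adjusted p = 0.997).

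St6galnac3 read -6.99, -7.46 and -7.29 with vehicle and -7.14, -7.28 and -7.07 with TGFb in control cells. Knockdown cells read -6.52, -6.84 and -6.66 with vehicle and -6.69, -6.23 and -6.48 with TGFb. The knockdown arrays were higher without overlap, by 0.58 (SE 0.18, adjusted p = 0.0337) and 0.69 (SE 0.18, adjusted p = 0.013). With normexp neither call was kept (0.14, adjusted p = 0.22, and 0.21, adjusted p = 0.0599).

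Among the alpha-2,3 sialyltransferases, 1 was higher and 3 lower in knockdown cells under each treatment. St3gal3, which acts on N-acetyllactosamine-type ends, read 1.94, 2.11 and 2.08 with vehicle and 2.07, 2.03 and 1.90 with TGFb in control cells. Knockdown cells read 1.39, 1.67 and 1.54 with vehicle and 1.61, 1.39 and 1.51 with TGFb. No knockdown array reached a control array, and the differences were -0.51 (SE 0.08, adjusted p = 0.000673) and -0.50 (SE 0.08, adjusted p = 0.000773). St3gal5 differed by -0.20 (adjusted p = 0.00707) and -0.28 (adjusted p = 0.000782), and St3gal6 by -0.31 (adjusted p = 0.00733) and -0.25 (adjusted p = 0.0223). St3gal1 differed by 0.28 (adjusted p = 0.00181) and 0.21 (adjusted p = 0.00941), but its second probe gave -0.19 (adjusted p = 0.0393) with vehicle, so the probes of this gene disagree in sign there, while with TGFb the second probe gave 0.13 (adjusted p = 0.17).

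The beta-1,3 galactosyltransferases were higher in knockdown cells where they differed, 2 of 5 with vehicle and 4 of 5 with TGFb. B3galt5, which makes type 1 chains, read -1.75, -1.98 and -1.59 with vehicle and -2.01, -1.82 and -2.17 with TGFb in control cells. Knockdown cells read -0.75, -0.57 and -0.73 with vehicle and -0.81, -0.99 and -1.05 with TGFb. The knockdown arrays were all higher, by 1.09 (SE 0.11, adjusted p = 3.53e-05) and 1.05 (SE 0.11, adjusted p = 4.74e-05). B3galt1, which also adds galactose to GlcNAc, read -1.37, -1.48 and -1.34 with vehicle and -1.55, -1.43 and -1.44 with TGFb in control cells. It read -0.88, -1.06 and -0.97 with vehicle and -1.10, -0.74 and -0.84 with TGFb in knockdown cells. It too was higher without overlap, by 0.42 (SE 0.09, adjusted p = 0.00387) and 0.58 (SE 0.09, adjusted p = 0.000471).

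B3galt2 differed by 0.61 (SE 0.15, adjusted p = 0.00808) with TGFb, which normexp (0.25, adjusted p = 0.227) and the authors' values (0.28, adjusted p = 0.132) did not keep. B3galt6 differed with TGFb by 0.25 (SE 0.07, adjusted p = 0.0248). B4galt1 was higher with vehicle (0.55, SE 0.06, adjusted p = 4.79e-05), while with TGFb its difference was -0.09 (SE 0.06, adjusted p = 0.3). Its second probe gave 0.13 (adjusted p = 0.764) with vehicle. B4galt6, a lactosylceramide synthase, was lower (-0.28, SE 0.09, adjusted p = 0.0381, and -0.49, SE 0.09, adjusted p = 0.00176), and B4galt2 was lower with TGFb (-0.21, SE 0.04, adjusted p = 0.00359).

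Chst12, a chondroitin 4-O-sulfotransferase, had a wide spread between replicates. It read -1.71, -2.32 and -2.24 with vehicle and -2.59, -2.58 and -2.01 with TGFb in control cells, and -1.27, -1.93 and -1.66 with vehicle and -1.94, -1.36 and -1.39 with TGFb in knockdown cells. With TGFb the knockdown arrays were higher without overlap (0.83, SE 0.23, adjusted p = 0.0195), and with vehicle the groups overlapped (0.47, SE 0.23, adjusted p = 0.171). With the slide as a block both passed, at 0.61 (adjusted p = 4.75e-05) and 0.47 (adjusted p = 0.000113). Within slides 1, 2 and 3 the vehicle difference was 0.44, 0.40 and 0.58.

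Chst3 was higher in knockdown cells with vehicle by 0.49 (SE 0.10, adjusted p = 0.00344) and with TGFb by 0.31 (SE 0.10, adjusted p = 0.04), a call lost in 16 of 29 other settings. Chst14, the dermatan 4-O-sulfotransferase, was higher by 0.24 (SE 0.06, adjusted p = 0.0131) and 0.44 (SE 0.06, adjusted p = 0.000292). Chst2 was higher by 0.39 (SE 0.05, adjusted p = 0.000156) and 0.41 (SE 0.05, adjusted p = 0.000111), and Chst7 by 0.16 (SE 0.04, adjusted p = 0.00883) and 0.22 (SE 0.04, adjusted p = 0.00138). Chst10 was higher with TGFb (0.35, SE 0.07, adjusted p = 0.0033). Chst8 was higher in knockdown cells with vehicle (0.31, SE 0.08, adjusted p = 0.0172) and lower with TGFb (-0.84, SE 0.08, adjusted p = 2.34e-05). The vehicle call was not kept with normexp (0.22, adjusted p = 0.0677).

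Between the kinds of cell, 2 of 9 GalNAc-transferases and 2 of 5 genes that the array lists as B3gnt were called with vehicle. The B3gnt calls include B4gat1, described below, which is grouped there by its array name only. With vehicle, Galnt1 (0.32, SE 0.09, adjusted p = 0.0157), Galnt2 (0.38, SE 0.06, adjusted p = 0.000521) and B3gnt2 (0.24, SE 0.06, adjusted p = 0.0147) were higher. With TGFb 0 of the 9 GalNAc-transferases passed in limma, and 2 had an unadjusted p under 0.05. B4gat1, listed as B3gnt1 by the array and now known as a glucuronyltransferase of dystroglycan glycans, was higher under each treatment (0.26, SE 0.05, adjusted p = 0.00183, and 0.17, SE 0.05, adjusted p = 0.0167).

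The TGFb response itself differed between the kinds of cell for 2 members, Chst8 and B4galt1, both lower, where 0.087% of all genes were called (21 of 24140), 0.0456% higher and 0.0414% lower. The Chst8 response was smaller in knockdown cells by -1.15 (SE 0.12, adjusted p = 0.00705), and within slide 3, the slide with all 4 groups, the difference of responses was -0.88. For Chst8 the smaller response came with a lower level on the TGFb arrays. The B4galt1 response was smaller by -0.65 (SE 0.09, adjusted p = 0.0213), with -0.58 within slide 3. For B4galt1 it came with a higher level on the vehicle arrays and overlapping TGFb arrays. A second B4galt1 probe gave -0.12 (SE 0.30, adjusted p = 0.971), and the B4galt1 call was lost without any of 8 single arrays: control vehicle 1 or 3, control TGFb 1 or 3, knockdown vehicle 2 or 3, and knockdown TGFb 2 or 3. For B3galt2 the difference of responses was 0.39, with a 95% interval of -0.07 to 0.84, and for St8sia4 it was 0.29, with an interval of 0.09 to 0.50 and an adjusted p of 0.698.

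**Figure D4:**
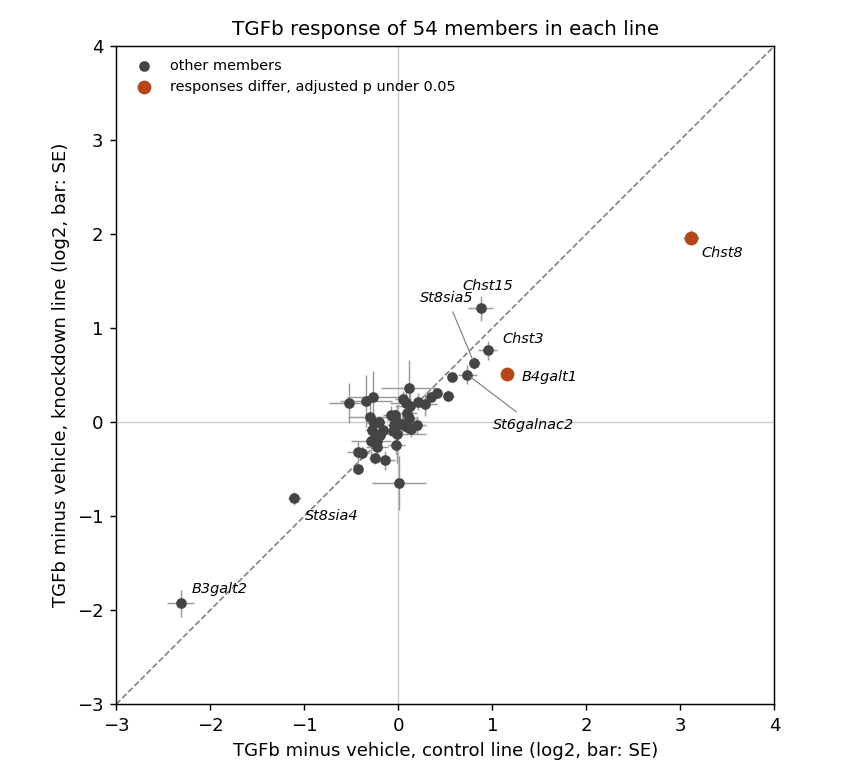
Each point is 1 of the 54 members, with its log2 change under TGFb in control cells on the horizontal axis and in knockdown cells on the vertical axis; bars are standard errors and the dashed line marks equal change. Chst8 (3.11 against 1.96) and B4galt1 (1.16 against 0.52) lie below the line and are the members whose responses differed in the test.

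With the slide as a block, 22 members were called for TGFb in control cells, 17 for TGFb in knockdown cells, 29 for knockdown with vehicle and 32 for knockdown with TGFb, of which 20, 16, 25 and 25 were also called without it. Beside them 12%, 7.89%, 37.6% and 37% of all genes were called in that fit. Among 15 members with a second probe kept, 21 calls could be compared: the second probe was called in the same direction for 6, not called for 14 and called in the opposite direction for 1, that of St3gal1. The 17 members called in no comparison were Chst1, Chst11, Chst13, St3gal4, St6galnac1, St8sia2, B4galt4, B4galt5, B4galt7, B3gnt4, B3gnt5, Galnt3, Galnt4, Galnt7, Galnt11, Galnt12 and Galnt14, by the probe that stands for each gene. A second Galnt14 probe, detected on 12 arrays, was higher in knockdown cells with vehicle (1.01, SE 0.25, adjusted p = 0.0102), where the first gave 0.00 (adjusted p = 0.997), so the probes of this gene disagree. On the first probes of these genes, changes ran from -0.53 to 0.21 with TGFb in control cells and from -0.65 to 0.36 in knockdown cells. On the same probes, differences between the kinds of cell ran from -0.39 to 0.28 with vehicle and from -0.53 to 0.73 with TGFb.

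Other genes of the same pathways were read from 9 lists. Beside their counts with TGFb, 10.2% of all genes were called in control cells and 9.49% in knockdown cells, and no list was tested against these shares. Of the 7 genes that make and carry the sulfate donor PAPS, TGFb raised 3 and lowered 1 in control cells, led by Papss2, a PAPS synthase, at 1.22 (SE 0.08, adjusted p = 8.27e-07). In knockdown cells only Papss2 passed, at 1.03 (SE 0.08, adjusted p = 4.03e-06). Of 20 heparan genes 2 rose and 1 fell with TGFb in each kind of cell. The one that fell was the 3-O-sulfotransferase Hs3st1 (-1.12, SE 0.07, adjusted p = 7.95e-07, and -1.53, SE 0.07, adjusted p = 5.96e-08). Chsy3, a chondroitin synthase, fell in both (-0.66, adjusted p = 0.000479, and -0.38, adjusted p = 0.0212), among 13 chondroitin chain genes of which 1 rose in control cells and 2 in knockdown cells. TGFb changed 0 of 9 fucosyltransferases in limma, and 0 had an unadjusted p under 0.05 in either kind of cell. It lowered 1 of 10 branching enzymes in each kind of cell. Glycolipid genes (11) gave 2 falls in control and 1 in knockdown cells, with 0 rises. Proteoglycan and polysialic acid carrier proteins (21) gave 3 rises and 1 fall in control cells and 1 rise in knockdown cells. Sialic acid genes (9) gave 0 calls in control cells, where 2 had an unadjusted p under 0.05, and 1 fall in knockdown cells. Neither HNK-1 glucuronyltransferase passed.

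Between the kinds of cell, 27.8% of all genes were called with vehicle and 29% with TGFb, and the list counts were not tested against these shares. Of 9 fucosyltransferases 5 were higher and none lower under each treatment, with Fut4 at 0.49 (SE 0.11, adjusted p = 0.00544) and 0.56 (SE 0.11, adjusted p = 0.00246). Of 20 heparan genes 8 were higher and 3 lower with vehicle and 6 and 3 with TGFb, led with vehicle by Hs3st5 at 1.43 (SE 0.08, adjusted p = 2.66e-07). Of 13 chondroitin chain genes 5 were higher under each treatment, led by Csgalnact1, which starts chondroitin chains, at 1.29 (SE 0.06, adjusted p = 9.65e-08) and 1.47 (SE 0.06, adjusted p = 3.46e-08), with 1 lower with vehicle and 2 with TGFb. Of 10 branching enzymes 2 were higher with vehicle, led by Mgat4b at 1.25 (SE 0.07, adjusted p = 2.51e-07), and with TGFb 4 were higher and 1 lower. Of 21 carrier proteins 6 were higher and 5 lower with vehicle and 5 and 5 with TGFb, and Ncam1, the main carrier of polysialic acid, was higher by 0.12 (SE 0.04, adjusted p = 0.0407) and 0.23 (SE 0.04, adjusted p = 0.00123). Of 11 glycolipid genes 3 were higher with vehicle, and with TGFb 3 were higher and 1 lower. Of 9 sialic acid genes 1 was higher and 1 lower with vehicle, and 1 higher and 2 lower with TGFb, the higher one being the sialidase Neu1 (0.49, adjusted p = 0.000155, and 0.42, adjusted p = 0.000445). Of the HNK-1 glucuronyltransferases B3gat1 was higher (0.42, adjusted p = 0.000999, and 0.44, adjusted p = 0.000675) and B3gat2 did not pass. Among the 7 sulfate donor genes 1 was higher and 1 lower under each treatment.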

How the data were processed

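RNA of 12 samples of mouse neural stem cells (500 ng each, 4 groups of 3) was hybridised to 1-colour Agilent arrays. The scanner files hold intensity values that the authors' Feature Extraction software (10.7.3.1, mm9 annotation, per the file headers) had background-subtracted; the deposited table holds the authors' processed log2 values of the same arrays, with centring not stated and a median of 7.93 in each column, and served as an alternative. Other steps the authors took were not given in the sources.

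Control spots were left out and outlier spots set aside. Intensity was taken as log2, each array's 75th percentile over gene spots (3175 to 4462) was subtracted, and spots of a probe were averaged. Probes well above background on 3 of 3 arrays of at least 1 group were kept, 70.3% to 78.4% of probes being so marked per array and none saturated. A gene was represented by its kept probe of highest mean, with symbols updated through RefSeq accessions (GRCm38.p6 table). Precision is limited by how many arrays there are, with a median SE of 0.102, and 0.144 for the difference of responses.

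All 4 groups entered 1 limma fit (limma 3.58.1 in R 4.3.3, lmFit and eBayes with trend, 8 residual degrees of freedom, 3.11 prior). There were 5 comparisons, with two-sided p-values adjusted by Benjamini-Hochberg over 24140 genes at a threshold of 0.05. In data simulated for the TGFb response of control cells (24069 genes), it recovered 43 of 100 genes changed by 0.5 and 75 of 100 changed by 1 on the log2 scale, with 5 false calls. The simulated arrays were drawn independently and without slide effects, so these counts do not give the error rate in the real arrays. Replicate numbers did not pair the samples: deviations of same-numbered arrays correlated positively in 6 of 18 pairs, from -0.53 to 0.58, against 12 of 12 pairs on the same slide.

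Genes named with full values were members called in any comparison with a change of at least 0.5 there (log2); smaller called members are given by their change. The members and gene lists were chosen with earlier results of these data known. Alternatives covered background correction, scaling, probe choice, filter, slide or replicate as a block, thresholds and leaving out each array; scaling over averaged probes was added after seeing the data. Exon or UTR positions of probes were not analysed here. A gene of the list that checks the TGFb response is not reported here.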

Additional observations from a re-analysis of the deposited data

Results flagged for a closer look

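The TGFb response of Chst8, a GalNAc-4-O-sulfotransferase, differed between knockdown and control cells by -1.15 on the log2 scale (limma, SE 0.12, 95% interval -1.41 to -0.89, adjusted p = 0.00705). The test of the difference itself drew attention to it. With the slide as a block it was -1.08 (adjusted p = 0.00502). The TGFb response of B4galt1, which makes N-acetyllactosamine, differed by -0.65 (SE 0.09, 95% interval -0.83 to -0.46, adjusted p = 0.0213), and with the slide as a block the adjusted p was 0.0264. The B4galt1 call was lost in 12 of 28 other settings, while the Chst8 call was kept in all 28. A second B4galt1 probe gave -0.12 (limma, adjusted p = 0.971).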

How the results depend on the processing

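Of 92 calls on single members, 50 were kept in each of the 29 settings that keep the threshold (28 for the difference of responses), 42 were lost in at least 1 and 0 reversed. Requiring at least 1.5-fold left 8 members called for TGFb in control cells, 6 for TGFb in knockdown cells, 6 for knockdown with vehicle and 10 for knockdown with TGFb, beside 3.99%, 3.41%, 6.94% and 7% of all genes, because the rule itself is stricter. Scaling to the array median gave 11 for TGFb in knockdown cells and 13 for knockdown with vehicle, and the cause was not tested. The difference of responses kept 1 of 2 members with median scaling, with the authors' values, with the median of a gene's probes, with the replicate number as a block and at an adjusted p under 0.01. Leaving out single arrays gave 15 to 21, 14 to 18, 20 to 25, 20 to 26 and 1 to 2 members in the 5 comparisons. With the slide as a fixed block the counts were 22, 17, 29, 32 and 2. With the replicate block, the replicate numbers being no pairing, the counts were 16, 15, 23, 25 and 1. Scaling over averaged probes, chosen after seeing the data, gave 21, 18, 25, 26 and 2. Dim probes such as those of B3galt2, St6galnac2 and St6galnac3 gave smaller changes with normexp.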
